A study of Rattus norvegicus with 10 samples.

Results

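Expression of 6 genes that set the chloride, sodium and potassium gradients of brain cells was examined in the hippocampus of rats made epileptic by an earlier stimulation of the amygdala. The genes were 4 cation-chloride cotransporters, Slc12a2, Slc12a4, Slc12a5 and Slc12a7, and 2 β subunits of the sodium pump, Atp1b1 and Atp1b2. They were chosen by symbol. For each symbol, the entry of the deposited count matrix whose RefSeq identifier belongs to it was taken, and each of the 6 symbols had 1 such entry, so that 6 of 32041 transcript entries were described.

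All 10 rats were male Sprague-Dawley animals, an outbred strain, that weighed 290 to 320 g and had electrodes placed in the left lateral amygdala under isoflurane with butorphanol. The 5 sham rats (rats 1 to 5) received no current. The 5 stimulated rats (rats 6 to 10) received pulses of 400 µA at 60 Hz for 30 min, prolonged by 10 min where status epilepticus had not begun, were given diazepam at 20 mg/kg to end it, and were watched by video EEG for 2 weeks for spontaneous seizures. Tissue of the left hippocampus with CA3 and the dentate gyrus, named as dorsal hippocampus in the labels, was taken 3 months after stimulation, and polyadenylated RNA was read in single reads of 36 cycles. The study's methods give a smaller number of stimulated rats than the labels and do not name the missing one, so all 10 labelled rats were used.

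Chloride moves across the membrane of neurons through secondary active cotransporters. The sodium-potassium-chloride cotransporter NKCC1, the product of Slc12a2, carries chloride into the cell, and the potassium-chloride cotransporters (KCC proteins) carry it out. KCC2, the product of Slc12a5, is found in neurons, and the balance between KCC2 and NKCC1 sets whether the opening of GABA-A receptors hyperpolarizes or depolarizes the cell, which is why both are studied in epilepsy. The sodium pump (Na,K-ATPase) builds the sodium and potassium gradients on which these cotransporters run. Its catalytic α subunit needs a β subunit to mature and reach the membrane. The β1 subunit is abundant in neurons, and the β2 subunit, also known as the adhesion molecule on glia, is best known from astrocytes.

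Aligned counts ranged from 13552309 in sham rat 2 to 24086059 in sham rat 4, and unaligned reads made up 32.8% to 37.1% of reads in sham rats. In stimulated rats 6 to 10 they made up 35.6%, 32.0%, 41.4%, 42.9% and 45.1%, so that rats 8, 9 and 10 lay above all sham rats, and the part of this difference in the levels below was not tested. Levels are given as CPM, that is aligned counts scaled to a common library size with trimmed mean (TMM) factors, and changes as log2 fold changes, stimulated over sham. Marker genes of neurons, written as a list of 7, were all measured, with a summed level of 3367 to 3735 CPM in sham and 3115 to 3870 CPM in stimulated rats. Of 8 markers of choroid plexus, a tissue beside the hippocampus that is rich in NKCC1, the sum was 4.63 to 20.2 CPM in sham and 8.87 to 35.8 CPM in stimulated rats. The dentate marker C1ql2 ranged from 140 to 165 CPM in sham rats and from 44.8 CPM (rat 7) to 207 CPM (rat 9) in stimulated rats. A further dentate marker, Prox1, ranged from 22.3 to 35.9 CPM in sham rats and from 21.3 to 52.0 CPM in stimulated rats. It was at 27.0 CPM in rat 7. The summed level of 2 measured CA3 markers was 200 to 232 CPM in sham and 199 to 262 CPM in stimulated rats. That of 3 CA1 markers was 110 to 194 CPM in sham rats. In stimulated rats it ranged from 50.3 CPM (rat 10) to 215 CPM (rat 6). So the labelled tissue was present in all 10 libraries, with unequal C1ql2 and CA1 markers among the stimulated rats.

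Chronic epilepsy was first compared with sham for the 6 genes together. None of the 6 passed an adjusted p-value of 0.05 in edgeR's quasi-likelihood test, as was the case for 0% of the 22447 features tested, whose lowest adjusted p-value was 0.376. At an unadjusted p-value under 0.05 the count was again 0 of 6, beside 9.86% of all features tested, and at the stricter cut-off of 0.001 that the study applied it was 0 of 6 beside 0.174%. The study used that cut-off in its own edgeR fit, with fewer stimulated rats by its methods, so its calls can differ. Among the genes described below, it listed Slc4a3, Lrrc8b, Lrrc8c, Egr1, Egr4, Aqp4 and Wnk1 as altered in expression after amygdala stimulation. Wnk1 was listed there under a RefSeq entry other than the one used here. Of the 6 genes, the study listed Slc12a4 as upregulated in its separate model of traumatic brain injury. The fold change was above 0 for 5 genes and below 0 for Slc12a5, and the median log2 fold change of the 6 was 0.11, beside 0.01 over all features tested. For 0 of the 6 genes were the values of the groups free of overlap, which held for 1.29% of all features tested. The widest 95% interval was that of Slc12a7 and the narrowest that of Atp1b1.

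**Figure D1:**
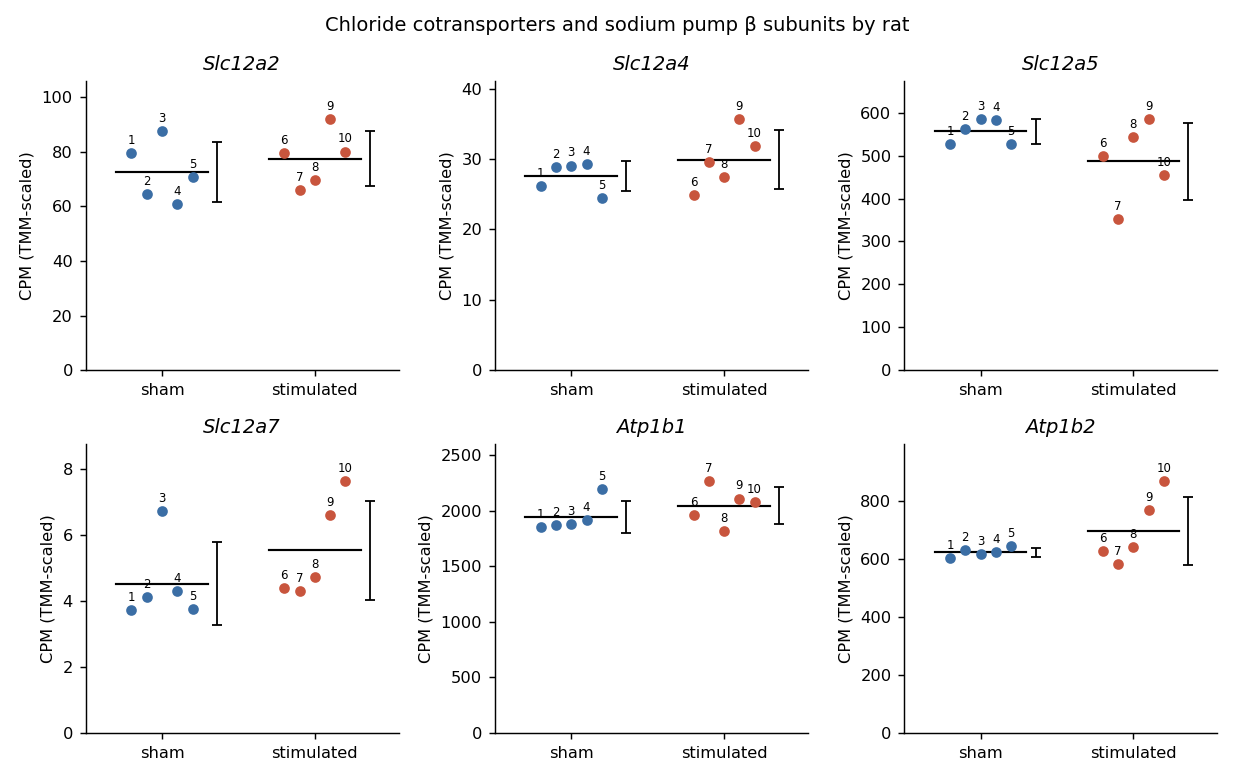
Levels of the 6 genes in each rat, in CPM on a linear axis for each gene, with 1 point per rat and the mean and SD of each group of 5. Sham and stimulated points overlap for each gene, and the points of the stimulated rats are more spread than those of the sham rats for Slc12a5 (352 to 586 CPM) and Atp1b2 (583 to 867 CPM).

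Slc12a2 (NM_031798), the chloride importer, was measured at 79.4, 64.5, 87.5, 60.7 and 70.8 CPM in sham rats 1 to 5 and at 79.6, 66.03, 69.6, 92.0 and 80.0 CPM in stimulated rats 6 to 10. The values of the groups interleaved, and only rat 9 exceeded all sham rats. The means were 72.6 ± 10.9 and 77.5 ± 10.2 CPM (SD, n = 5 each), a log2 fold change of 0.09 (SE 0.119, edgeR adjusted p = 0.83). Its 95% interval ran from -0.16 to 0.35, that is from a level 10.7% lower to one 27.5% higher in stimulated rats. With single rats left out the log2 fold change was 0.02 (without stimulated rat 9), 0.04 (without sham rat 4), 0.05 (without sham rat 2) or 0.17 (without sham rat 3). The counts behind these values were 845 to 1804 reads per rat. In tissue of mixed cells, more or fewer cells of a type and more or less RNA per cell cannot be told apart, for this gene and for those that follow.

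Slc12a5 (NM_134363), the neuronal chloride exporter, was measured at 527, 561, 585, 584 and 527 CPM in sham rats 1 to 5. In stimulated rats 6 to 10 it was at 499, 352, 543, 586 and 455 CPM. Rats 6, 7 and 10 lay below all sham rats, rat 8 within their range, and rat 9 marginally above the highest of them. The means were 557 ± 28.8 and 487 ± 89.8 CPM (SD, n = 5 each), a log2 fold change of -0.19 (SE 0.114, edgeR adjusted p = 0.59). The 95% interval of the change, from -26.3% to 3.71%, included 0.

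The lower mean of Slc12a5 rested in part on rat 7. Without rat 7 the log2 fold change was -0.11, and without rat 9 it was -0.27 (edgeR, unadjusted p = 0.0318). The value of 352 CPM in rat 7 was the lowest of the 10. The summed level of neuronal markers in rat 7 was the highest of the 10 (3870 CPM), with Nefl, Map2 and Tubb3 each at their highest. Rbfox3 (124 CPM) was at its lowest there, Snap25 and Syt1 lay below all sham rats, and Stmn2 lay within their range. The summed level of 2 measured dentate granule cell markers was the lowest in rat 7 (71.8 CPM, against 163 to 201 CPM in sham rats). C1ql2 (44.8 CPM) was low there, while Prox1 (27.0 CPM) lay within the sham range of 22.3 to 35.9 CPM. In rat 9, where Slc12a5 was highest, the dentate marker sum was also the highest, at 259 CPM. The part of dentate tissue content in the values of Slc12a5 was not tested. The coefficient of variation of Slc12a5 between rats was 5.18% in sham and 18.4% in stimulated rats.

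Slc12a4 (NM_019229), which encodes KCC1, the widely expressed cotransporter that regulates cell volume, was measured at 26.2, 28.9, 29.1, 29.2 and 24.5 CPM in sham rats 1 to 5. In stimulated rats 6 to 10 it was at 24.8, 29.6, 27.5, 35.7 and 31.9 CPM. Rats 7, 9 and 10 lay above all sham rats, rat 7 by a margin smaller than the spread of the sham rats, and rats 6 and 8 lay within their range. The means were 27.6 ± 2.13 and 29.9 ± 4.16 CPM (SD, n = 5 each), and the log2 fold change was 0.12 (SE 0.111, edgeR adjusted p = 0.753) and a 95% interval of the change from -8.09% to 28.1%. The log2 fold change was 0.05 without stimulated rat 9 and 0.07 without sham rat 5.

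Slc12a7 (NM_001013144), which encodes KCC4, a potassium-chloride cotransporter best known from epithelia, gave few reads, 54 to 148 counts per rat. Its level was 3.72, 4.12, 6.75, 4.30 and 3.77 CPM in sham rats 1 to 5 and 4.39, 4.32, 4.73, 6.63 and 7.64 CPM in stimulated rats 6 to 10. Sham rat 3 and stimulated rats 9 and 10 stood above the other 7 rats, which lay between 3.72 and 4.73 CPM. The means were 4.53 ± 1.26 and 5.54 ± 1.51 CPM (SD, n = 5 each), and the log2 fold change was 0.29 (SE 0.222, edgeR adjusted p = 0.687) with a 95% interval of the change from -12.3% to 70.1%. This value depended on single rats, at 0.48 without sham rat 3 (edgeR, unadjusted p = 0.0409) and 0.15 without stimulated rat 10. Rat 10 also had the highest sum of choroid plexus markers, 35.8 CPM, and rat 3 one of the lower sums, 7.08 CPM. The part of choroid plexus in these values was not tested.

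**Figure D2:**
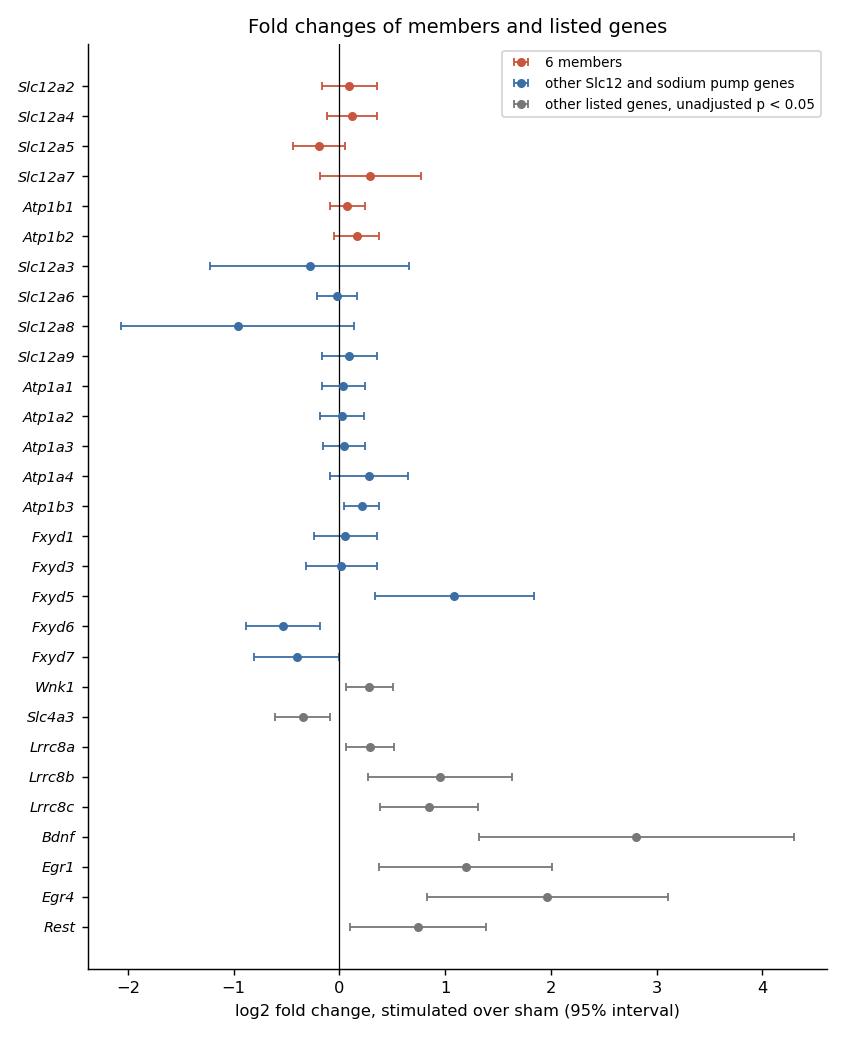
Log2 fold change, stimulated over sham, with the 95% interval from edgeR's quasi-likelihood fit of 5 against 5 rats. Shown are the 6 genes, the other tested Slc12 and sodium pump genes, and further listed genes at an unadjusted p-value under 0.05. For the 6 genes each interval crosses 0, and Slc12a5, at -0.19, is the single one of them with a fold change below 0.

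The ratio of Slc12a5 to Slc12a2 reads within a rat was then taken. It describes the tissue as a whole and not the balance of chloride exporter and importer within a neuron. The product of Slc12a5 is found in neurons, whereas choroid plexus is rich in that of Slc12a2. The ratio can therefore differ with the mix of cells as well as with RNA per cell, and the part of each was not tested. Library size cancels in such a ratio, whereas transcript length does not, so its size has no meaning as a ratio of molecules and only differences between rats are read. The ratio was 6.64, 8.70, 6.69, 9.62 and 7.44 in sham rats 1 to 5 and 6.27, 5.33, 7.80, 6.37 and 5.68 in stimulated rats 6 to 10. All 5 stimulated rats lay below the sham mean and 4 of the 5 lay below all sham rats. Rat 8, at 7.80, lay within the sham range, so the groups overlapped.

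The mean ratio was 7.82 ± 1.30 for sham and 6.29 ± 0.944 for stimulated rats (SD over 5 rats each). The difference of -0.31 on the log2 scale, a ratio 19.4% lower in stimulated rats, did not pass the threshold in the exact permutation test over all assignments of 5 of the 10 rats (two-sided, p = 0.0556, and p = 0.111 after adjustment over 2 ratios). The smallest p-value of this design is 0.00794, and the 95% interval of the log2 difference, from -0.65 to 0.003, just included 0. The call rested on single rats, since the same exact permutation test gave p = 0.0238 without stimulated rat 8 and p = 0.0476 without sham rat 1, but p = 0.127 without stimulated rat 7 or 10 and p = 0.103 without sham rat 2, sham rat 4 or stimulated rat 6, each unadjusted. Both genes entered in the direction of a lower ratio, Slc12a5 with a lower and Slc12a2 with a higher mean in stimulated rats, and neither passed its own test. The stimulated rats were not alike in this. In rat 7 the ratio was low with Slc12a5 at its lowest and Slc12a2 at 66.03 CPM, below the sham mean, while in rat 9 it was low with Slc12a5 at its highest and Slc12a2 at 92.0 CPM, the highest of the 10 rats.

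**Figure D3:**
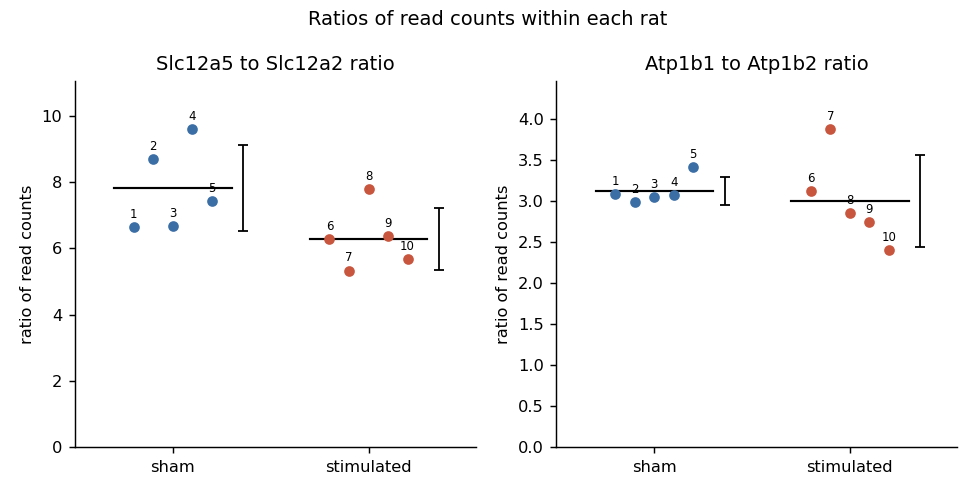
Ratio of read counts within each rat for Slc12a5 to Slc12a2 and for Atp1b1 to Atp1b2, with 1 point per rat and the mean and SD of each group of 5. In the first ratio 4 of 5 stimulated rats sit below the lowest sham rat (6.64), and in the second the stimulated rats spread from 2.40 to 3.88 around sham rats at 2.98 to 3.41.

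Of the β subunits of the sodium pump, Atp1b1 (NM_013113), the subunit abundant in neurons, was measured at 1855, 1873, 1877, 1913 and 2196 CPM in sham rats 1 to 5. In stimulated rats 6 to 10 it was at 1962, 2262, 1820, 2109 and 2076 CPM. Sham rat 5 stood apart from the other 4 sham rats, and of the stimulated rats only rat 7 exceeded it and only rat 8 lay below all sham rats. The means were 1943 ± 143 and 2046 ± 166 CPM (SD, n = 5 each), a log2 fold change of 0.07 (SE 0.077, edgeR adjusted p = 0.779). Its 95% interval of the change, from -6.12% to 18.1%, was the tightest of the 6 genes. The log2 fold change was 0.02 without stimulated rat 7 and 0.11 without sham rat 5. On the later GRCr8 assembly the locus of Atp1b1 overlaps Nme7, and those of Slc12a4 and Slc12a5 each overlap 1 uncharacterized locus. Whether counting used strand was not stated, so reads of overlapping genes cannot be separated.

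Atp1b2 (NM_012507), the glial subunit, was held within a narrow range in sham rats 1 to 5, at 601, 629, 617, 624 and 644 CPM. In stimulated rats 6 to 10 it was measured at 628, 583, 640, 768 and 867 CPM. Rats 9 and 10 lay above all sham rats, rat 7 below all of them, and rats 6 and 8 within their range. The means were 623 ± 15.7 and 697 ± 117 CPM (SD, n = 5 each), and the log2 fold change was 0.16 (SE 0.1, edgeR adjusted p = 0.608) and a 95% interval of the change from -3.63% to 30.0%. Without rat 7 the log2 fold change was 0.21 (edgeR, unadjusted p = 0.0422), and without rat 10 it was 0.07.

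Astrocyte markers were compared with Atp1b2 rat by rat. The summed level of 8 astrocyte markers was 3738 to 4309 CPM in sham rats and 3768, 8618, 3966, 4795 and 8026 CPM in stimulated rats 6 to 10. Of the 8, 4 were higher in stimulated rats at an unadjusted p-value under 0.05 and 0 lower (6.7% and 3.16% over all features tested). The log2 fold changes of Aldh1l1, Gjb6 and Aldoc were below 0, at -0.27, -0.02 and -0.11. Gfap, the intermediate filament of reactive astrocytes, reached 6469 CPM in rat 7 and 5396 CPM in rat 10, against 1327 to 1927 CPM in sham rats. In stimulated rats 6, 8, 9 and 10 Atp1b2 had the same order as the astrocyte sums, while rat 7, with the highest sum, had the lowest Atp1b2 of the 10 rats. The sum of rat 7 was mostly Gfap, and its other markers were divided. Aldh1l1 (16.4 CPM), Gjb6 (15.1 CPM), Gja1 (271 CPM) and Aldoc (742 CPM) were each the lowest of the 10 rats there. Aqp4, Slc1a2 and Slc1a3 lay above all sham rats in rat 7. The part of astrocyte content in the level of Atp1b2 was not tested.

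The ratio of Atp1b1 to Atp1b2 reads was 3.09, 2.98, 3.04, 3.07 and 3.41 in sham rats 1 to 5 and 3.12, 3.88, 2.84, 2.75 and 2.40 in stimulated rats 6 to 10. Rats 8, 9 and 10 lay below all sham rats and rat 7 above them, so the stimulated rats departed from sham in both directions. The means were 3.12 ± 0.169 and 3.00 ± 0.557 (SD, n = 5 each), a log2 difference of -0.07 with a 95% interval from -0.33 to 0.20 (exact permutation, two-sided, p = 0.571 before and after adjustment over 2 ratios).

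**Figure D4:**
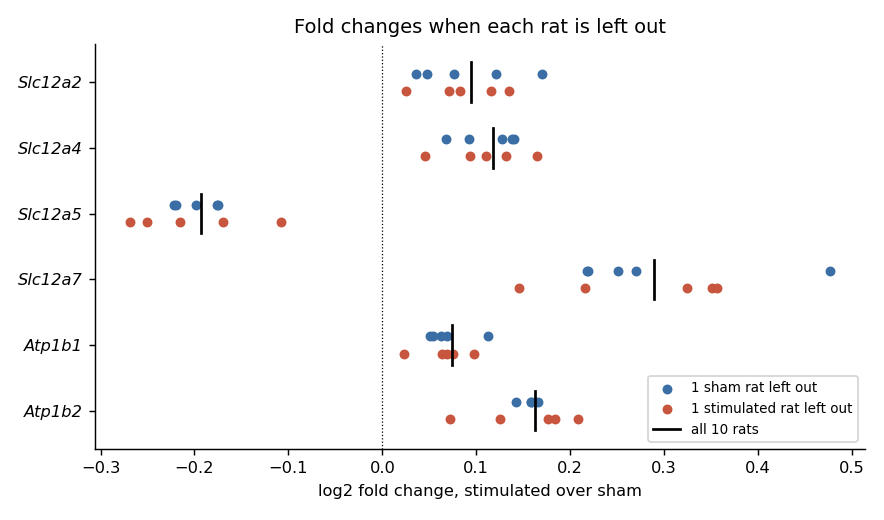
Log2 fold change of each of the 6 genes in the fit of all 10 rats and in the 10 fits that each left out 1 rat. The sign is kept by each gene in each fit, and the values range most widely for Slc12a7 (0.15 to 0.48) and least for Atp1b1 (0.02 to 0.11).

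The remaining members of both families were examined next. The Slc12 family list held 9 genes, 8 of which had enough reads to be tested. Of these, 0 were higher and 0 lower at an unadjusted p-value under 0.05 (6.7% and 3.16% over all features tested). Their median log2 fold change was 0.03. Slc12a1, the kidney cotransporter NKCC2, was below the filter on low counts.

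Of 15 sodium pump genes (α, β and FXYD subunits), 12 were tested, with 2 higher and 2 lower in stimulated rats at an unadjusted p-value under 0.05, 0 at an adjusted p-value under 0.05, and a median log2 fold change of 0.05. The share over all features tested was 6.7% higher and 3.16% lower.

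The third β subunit, Atp1b3 (NM_012913), was at 90.6, 87.2, 90.7, 81.2 and 99.7 CPM in sham rats 1 to 5 and at 101, 108, 106, 105 and 99.7 CPM in stimulated rats 6 to 10. 4 of the 5 stimulated rats exceeded all sham rats and rat 10 lay at the level of the highest sham rat. The log2 fold change was 0.21 (SE 0.0777, edgeR adjusted p = 0.42). Unlike Atp1b2, whose stimulated values spread over a wide range, those of Atp1b3 lay between 99.7 and 108 CPM.

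The FXYD proteins are small subunits that tune the affinity and speed of the pump. Fxyd6 (NM_022005) was measured at 54.6, 52.7, 55.6, 61.9 and 55.1 CPM in sham rats 1 to 5 and at 53.3, 28.6, 43.4, 41.2 and 26.6 CPM in stimulated rats 6 to 10. 4 of the 5 stimulated rats lay below all sham rats and rat 6 within their range, with a log2 fold change of -0.53 (SE 0.164, edgeR adjusted p = 0.396). Fxyd7 (NM_022008), a brain FXYD protein, was at 60.9 ± 13.2 and 46.0 ± 12.7 CPM (SD, n = 5 each), a log2 fold change of -0.40 (SE 0.188, edgeR adjusted p = 0.505). Fxyd5 (NM_001270688), known as dysadherin for its effect on cell adhesion, was at 2.44, 1.53, 3.21, 2.56 and 3.19 CPM in sham rats 1 to 5 and at 3.76, 8.68, 2.94, 3.01 and 9.29 CPM in stimulated rats 6 to 10 (log2 fold change 1.09, SE 0.349, edgeR adjusted p = 0.399). The high values of Fxyd5 were those of rats 7 and 10, the rats with the highest Gfap and the lowest Fxyd6. Other astrocyte markers were divided in rat 7, where Aldh1l1, Gjb6, Gja1 and Aldoc were the lowest of the 10 rats. Aqp4, Slc1a2 and Slc1a3 lay above all sham rats there. The part of glial content in the values of Fxyd5 was not tested.

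The cotransporters are switched by phosphorylation, which activates NKCC1 and inhibits the KCC proteins, so that their activity can change without a change in RNA. Of 16 listed kinases, phosphatases and partners, 14 were tested, and 1 was higher and 0 lower in stimulated rats at an unadjusted p-value under 0.05, with a median log2 fold change of 0.01. This is close to the 6.7% higher and 3.16% lower over all features tested. The 1 higher gene was Wnk1 (NM_001002823), the chloride-sensing kinase at the head of this cascade, at 29.3, 26.8, 26.8, 25.5 and 27.5 CPM in sham rats 1 to 5 and at 33.0, 34.0, 28.4, 39.2 and 30.7 CPM in stimulated rats 6 to 10. 4 of the 5 stimulated rats exceeded all sham rats, and the log2 fold change was 0.28 (SE 0.102, edgeR adjusted p = 0.417). Ckb, the brain creatine kinase that binds KCC2, was at 1257 ± 122 and 1409 ± 186 CPM (log2 fold change 0.16, edgeR adjusted p = 0.6), and Ppp1ca, a catalytic subunit of protein phosphatase 1, at 264 ± 20.5 and 270 ± 15.0 CPM (log2 fold change 0.04, edgeR adjusted p = 0.907, SD and n = 5 each).

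Other routes for chloride and bicarbonate were listed as 27 genes, of which 23 were tested. At an unadjusted p-value under 0.05, 3 were higher and 1 was lower in stimulated rats (6.7% and 3.16% over all features tested), 0 passed at an adjusted p-value under 0.05, and the median log2 fold change was 0.02. The lower gene was Slc4a3 (NM_017049), the chloride-bicarbonate exchanger AE3 of neurons, which loads cells with chloride. It was measured at 139, 127, 123, 117 and 116 CPM in sham rats 1 to 5 and at 99.2, 70.4, 122, 102 and 95.2 CPM in stimulated rats 6 to 10. Only rat 8 lay within the sham range, as it did for the ratio of Slc12a5 to Slc12a2, and the log2 fold change was -0.35 (SE 0.122, edgeR adjusted p = 0.414).

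The 3 higher genes of this list were Lrrc8a, Lrrc8b and Lrrc8c, which encode subunits of the volume-regulated anion channel. Lrrc8a (NM_001024782), the obligatory subunit, was at 48.1 ± 5.36 and 58.7 ± 6.95 CPM (SD, n = 5 each; log2 fold change 0.29, SE 0.107, edgeR adjusted p = 0.42). Lrrc8b (NM_001107204) was at 12.9 to 19.2 CPM in sham rats and at 18.9, 39.7, 14.2, 62.1 and 24.9 CPM in stimulated rats 6 to 10, a log2 fold change of 0.95 (SE 0.318, edgeR adjusted p = 0.409) that was 0.57 without rat 9. Lrrc8c (NM_001037179) was at 5.64 to 9.08 CPM in sham rats and at 8.60, 16.4, 8.88, 17.4 and 11.3 CPM in stimulated rats (log2 fold change 0.85, SE 0.217, edgeR adjusted p = 0.376). For Lrrc8b and Lrrc8c rats 7, 9 and 10 exceeded all sham rats and rats 6 and 8 did not. The fourth measured subunit, Lrrc8d, which was named after its values were seen, was at 58.2 ± 5.24 and 61.3 ± 6.48 CPM (SD, n = 5 each).

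Genes known to control the level of KCC2 were listed as 11, all of them tested, of which 4 were higher in stimulated rats and 0 lower at an unadjusted p-value under 0.05 (6.7% and 3.16% over all features tested), with a median log2 fold change of 0.11. Bdnf (NM_012513), the neurotrophin that lowers KCC2 in mature neurons, was at 4.27 to 6.75 CPM in sham rats and at 4.84, 91.8, 4.79, 71.7 and 23.3 CPM in stimulated rats 6 to 10, a log2 fold change of 2.81 (SE 0.693, edgeR adjusted p = 0.376). Egr4 (NM_019137), a transcription factor that acts on the KCC2 gene, was at 13.5 to 16.9 CPM in sham rats and at 14.0, 96.3, 10.3, 124 and 58.4 CPM in stimulated rats (log2 fold change 1.97, SE 0.531, edgeR adjusted p = 0.376). Bdnf and Egr4 separated the stimulated rats in the same way, with rats 7, 9 and 10 above all sham rats and rats 6 and 8 not.

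Egr1 (NM_012551), an immediate early transcription factor, was at 27.0 ± 4.38 and 61.7 ± 36.9 CPM (SD, n = 5 each; log2 fold change 1.19, SE 0.381, edgeR adjusted p = 0.399). Rest (NM_031788), a repressor of neuronal genes that has a binding element in the KCC2 gene, was at 1.53 ± 0.522 and 2.59 ± 0.969 CPM (SD, n = 5 each; log2 fold change 0.74, or 0.49 without rat 7, SE 0.301, edgeR adjusted p = 0.446). The summed level of 6 markers of recent neuronal activity, Egr1 among them, was 106 to 142 CPM in sham rats and 151, 580, 104, 1546 and 535 CPM in stimulated rats 6 to 10. In stimulated rats 8, 6, 10 and 7, in the order of rising sums, Slc12a5 was at 543, 499, 455 and 352 CPM, an inverse order, while rat 9, with the highest sum, had the highest Slc12a5 of the 10 rats. The part of recent activity in the levels of the 6 genes was not tested.

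A last list of 8 genes held inward rectifier potassium channels, calcium pumps of the plasma membrane and proton-potassium pumps, of which 7 were tested. At an unadjusted p-value under 0.05, 0 were higher and 0 lower (6.7% and 3.16% over all features tested), and the median log2 fold change was 0.02. Its 3 genes of highest mean count were the calcium pumps Atp2b1 (log2 fold change 0.14), Atp2b2 (0.02) and Atp2b3 (-0.15).

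To describe the pattern across rats, each of the 6 genes was set beside 8248 features with a symbol and a mean of at least 10 CPM, and the 2 with the highest Pearson r over the log2 CPM of the 10 rats were named. These were the highest of many and are given without a p-value. For Slc12a5 they were Tmem38a (r = 0.976, Spearman's rho = 0.794) and Hipk4 (r = 0.973, rho = 0.794), with r of 0.80 and 0.75 without rats 7 and 10, the rats farthest from the median. For Slc12a2 they were Zmat3 (r = 0.885, rho = 0.83) and Fgfr2 (r = 0.865, rho = 0.952), with r of 0.75 and 0.85 without rats 4 and 9. For Slc12a4 they were Grin2b (r = 0.967) and Aebp1 (r = 0.941), and for Slc12a7 they were Rev3l (r = 0.907) and Zbtb24 (r = 0.885), all with r of at least 0.80 without the 2 rats farthest from the median.

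Atp1b1 was most like Hsbp1 (r = 0.954, rho = 0.927) and Uqcrc2 (r = 0.933, rho = 0.915), with r of 0.97 and 0.93 without rats 5 and 7, so that these likenesses did not rest on the outlying rats. Atp1b2 was most like Tns1 (r = 0.975, rho = 0.588) and Ace (r = 0.944, rho = 0.297), and these rested on rats 9 and 10, since r was 0.39 and -0.03 without them. The 10 points of each correlation share libraries and their scaling and include both groups.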

How the data were processed

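The authors used BWA 0.5.9 and the rat build RN4 for alignment and deposited raw counts per RefSeq transcript, with no normalization. How shared reads were counted was not stated. Unaligned reads were set aside. Symbols came from RefSeq's GRCr8 gene table, for names alone. Features with a summed count at or above the 30th percentile (46 counts) were tested with edgeR 4.0.16 in R 4.3.3 (quasi-likelihood test, TMM scaling, Benjamini-Hochberg adjustment over 22447 features), with 5 sham and 5 stimulated rats and no covariate. Columns were matched to rats by number. The SE is the log2 fold change over the square root of F. Ratios of counts were compared by exact permutation over all assignments of 5 of the 10 rats, and their intervals hold the shifts this test does not refuse. Listed genes named were those at an unadjusted p-value under 0.05 or, where fewer than 3, filled up with those of highest mean CPM. Alternatives covered scaling, filter, test, scale of the ratio and each rat left out. The genes and lists were chosen with earlier results of these data known. Labels gave no batch. Results for some listed genes are not reported here.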

Additional observations from a re-analysis of the deposited data

Results flagged for a closer look

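In groups of 5 rats, 76 sets of values (genes, ratios and marker sums) were searched for a highest or lowest rat whose gap to the nearest other rat exceeded 0.71 of the group's whole range (Dixon's 95% limit), and 3 sets had one, where 3.8 are expected by chance. All 3 were sham rats. Slc12a7 in sham rat 3 was at 6.75 CPM, against 4.30 CPM in the next rat, a gap of 0.809 of the range. Atp1b1 in sham rat 5 was at 2196 CPM, against 1913 CPM in the next rat, a gap of 0.83 of the range. The ratio of Atp1b1 to Atp1b2 in the same rat 5 was 3.41, against 3.09 in the next rat, a gap of 0.754 of the range. The last 2 share the Atp1b1 count of rat 5.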

How the results depend on the processing

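Of 132 fits of the 6 genes over 22 alternatives, 0 turned the sign, 0 reached an adjusted p-value under 0.05 and 3 an unadjusted one, so that with 1 rat left out 0 to 1 of the 6 genes were below that level (1 without sham rat 3, stimulated rat 7 or stimulated rat 9). Over all features, 119 passed an adjusted p-value of 0.05 in edgeR's likelihood ratio test, 90 in its exact test and 33 in DESeq2, against 0 in the other 19 alternatives. The cause was not tested. With 1 rat left out, the log2 difference ranged from -0.39 to -0.23 for the Slc12a5 to Slc12a2 ratio and from -0.17 to 0.0025 for Atp1b1 to Atp1b2. On the linear scale the first ratio differed by -1.53 (exact permutation, p = 0.0714). Leaving out a rat moved Ppp1ca between -0.00102 and 0.0661 and Atp2b2 between -0.0133 and 0.0398 in log2 fold change. Upper quartile scaling put Atp2b2 at -0.0091. With all entries of its symbol summed, the log2 fold change of Bdnf was 2.12. In limma-voom the log2 fold change was 1.90 for Bdnf and 1.40 for Egr4. Bdnf and Egr4 had adjusted p-values of 0.0144 and 0.0399 in the likelihood ratio test and 0.0195 and 0.0471 in the exact test. Over all alternatives the unadjusted p-value in these fits reached 0.0586 for Atp1b3, 0.139 for Fxyd7, 0.0549 for Lrrc8a, 0.0549 for Egr1 and 0.109 for Rest, past the level of 0.05 at which they were named. No paired analysis was possible because the labels number the rats 1 to 10, so that the groups share no number. Of the 6 genes, Slc12a7, at 54 to 148 counts, had the least depth. Among the other genes named, Rest had 11 (sham rat 2) to 89 (stimulated rat 7) counts. Fxyd5 had 20 (sham rat 2) to 187 (stimulated rat 7) counts.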
